A study of Homo sapiens with 6 samples.

Results

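Cytochrome P450 (CYP) enzymes are heme proteins that insert an oxygen atom into drugs, sterols, steroids, vitamins and fatty acids. Microsomal members receive electrons from cytochrome P450 oxidoreductase and cytochrome b5, and mitochondrial members receive them from ferredoxin. The liver is the main site of the drug-metabolizing families, whose genes are classically controlled by the aryl hydrocarbon receptor (AHR), the pregnane X receptor and the constitutive androstane receptor. The family was taken here as every gene of the count table whose symbol is CYP followed by a number, a letter or letters and a number, without the P that marks a pseudogene. This gave 56 of the 61541 genes, all 56 annotated as protein coding.

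The RNA-seq libraries came from luciferases-expressing HepG2 cells, a hepatoblastoma line with a red luciferase (SLR3) driven by antioxidant response elements (ARE) and a green luciferase (ELuc) driven by the thymidine kinase promoter, both on a mouse artificial chromosome. Cells that received sedanolide, a phthalide of celery oil, at 100 μM for 24 h (n = 3) were compared with control cells of the same line (n = 3), for which the labels give no vehicle. Both reporters are present in both groups. The labels do not say whether replicates were separate cultures, so that p-values measure the spread between these libraries only.

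Expected counts per library were between 16420241 and 26714850, and 3 counts, the limit that a count of 0 allows, corresponded to 0.116 to 0.182 CPM (counts relative to library size, scaled by TMM normalization). Such limits cover counting error only. The libraries also fell on 2 sides of the first principal component of log2 CPM, which held 56.1% of the variance. Control 1, control 2 and sedanolide 3 lay on the first side, with 1.43% to 2.15% of counts from mitochondrial genes, and control 3, sedanolide 1 and sedanolide 2 lay on the second, with 4.23% to 5.22%. Each comparison below is therefore also given within the sides where it matters. All 9 hepatocyte markers examined (such as ALB, APOB and AFP) passed the filter on low counts. Their summed level was 29889.2 to 45923.7 CPM in control and 22073.7 to 38878.2 CPM in sedanolide libraries. By side, the sum was 38878.2 to 45923.7 CPM on the first side and 22073.7 to 29889.2 CPM on the second. Within each side, sedanolide libraries lay below control libraries. Of the 9 markers, 0 were called by edgeR (0.667% of all genes tested) and 3 were at an unadjusted p-value under 0.05 (11.9% of all genes). For 8 of the 9 the log2 fold change was below 0, and the median was -0.43. Markers of fibroblasts, leukocytes and endothelium summed to 20.2 to 28.0 CPM in control and 10.3 to 15.2 CPM in sedanolide libraries, and COL1A2 was at 0 counts in all libraries. Most of that sum was PDGFRB (20.1 ± 4.69 CPM in control and 7.51 ± 3.35 CPM in sedanolide libraries, SD, n = 3), which edgeR with condition as the only term did not call, and which DESeq2 and edgeR with a term for the side did. Only 2 of the 7 markers of other cell types, PDGFRB and PECAM1, passed the filter on low counts. PECAM1 was at 4.46 ± 0.569 CPM in control and 4.67 ± 0.799 CPM in sedanolide libraries (SD, n = 3). The part of these markers in the P450 values was not tested.

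To show what lies in front of these genes, the 250 bases before the RefSeq start site are printed for 4 members. CYP39A1 and CYP2S1 are the members with the lowest unadjusted p-values among those with an entry in the promoter table, CYP1A1 is the classic AHR target, and CYP4F11 is a tested member that holds the ARE core. Capitals mark matches on either strand to the core of the xenobiotic response element (GCGTG, the AHR site), the core of the ARE (TGACNNNGC), the half-site of nuclear receptors (AGGTCA), the sterol regulatory element (TCACNCCAC) or the TATA box (TATAAA). All are on GRCh38.p14, 5′ to 3′ on the strand of the gene.
CYP39A1, chr6:46652819-46653068, minus strand: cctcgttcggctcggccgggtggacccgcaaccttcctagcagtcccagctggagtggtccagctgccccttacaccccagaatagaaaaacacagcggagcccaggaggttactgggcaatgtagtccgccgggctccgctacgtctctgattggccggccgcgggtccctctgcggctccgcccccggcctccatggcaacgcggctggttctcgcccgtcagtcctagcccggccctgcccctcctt
CYP2S1, chr19:41192969-41193218, plus strand: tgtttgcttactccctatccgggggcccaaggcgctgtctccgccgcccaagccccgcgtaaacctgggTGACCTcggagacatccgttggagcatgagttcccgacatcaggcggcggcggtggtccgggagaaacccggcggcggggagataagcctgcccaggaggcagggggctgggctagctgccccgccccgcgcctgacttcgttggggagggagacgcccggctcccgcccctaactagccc
CYP1A1, chr15:74725529-74725778, minus strand: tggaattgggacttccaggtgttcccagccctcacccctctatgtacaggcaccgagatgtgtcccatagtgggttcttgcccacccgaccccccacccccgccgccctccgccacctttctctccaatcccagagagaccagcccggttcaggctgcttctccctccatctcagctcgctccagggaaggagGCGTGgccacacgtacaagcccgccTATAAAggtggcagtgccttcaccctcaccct
CYP4F11, chr19:15934868-15935117, minus strand: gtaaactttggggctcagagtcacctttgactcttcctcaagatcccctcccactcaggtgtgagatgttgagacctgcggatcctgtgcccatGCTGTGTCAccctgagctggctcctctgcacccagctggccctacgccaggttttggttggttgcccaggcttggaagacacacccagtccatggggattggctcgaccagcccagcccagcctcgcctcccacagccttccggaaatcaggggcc

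Counting back from the start (the base before it is -1), the AHR core of CYP1A1 covers bases -57 to -53 and its TATA box bases -32 to -27. In CYP4F11 the ARE core, on the opposite strand, covers bases -156 to -148, and in CYP2S1 a half-site, also on the opposite strand, covers bases -181 to -176. CYP39A1 held none of the 5 motifs in this window. Promoters were found for 39 of the 56 members. The ARE core was present in 4 of these 39 (CYP2B6, CYP4F8, CYP4F11 and CYP4V2) and in 10.9% of all 35116 promoters of the table. The AHR core was present in 9 of the 39 and in 32.2% of all promoters, the half-site in 11 and in 12.1%, the TATA box in 14 and in 10.7%, and the sterol element in 0 and in 0.883%. These are matches of letters, not sites shown to be bound.

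The P450 counts of the cells were concentrated in few members. Of the 56 members, 41 had at least 1 count in at least 1 library, 26 had counts in all 6 libraries, and 15 had 0 counts in every library. The filter on low counts left 21 members for the test. Of all 61541 genes, 26455 had at least 1 count and 14102 were left for the test. The 6 members with the most counts, CYP27A1, CYP24A1, CYP51A1, CYP2W1, CYP20A1 and CYP19A1, took 85.0% to 86.7% of all P450 counts in each library.

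**Figure D1:**
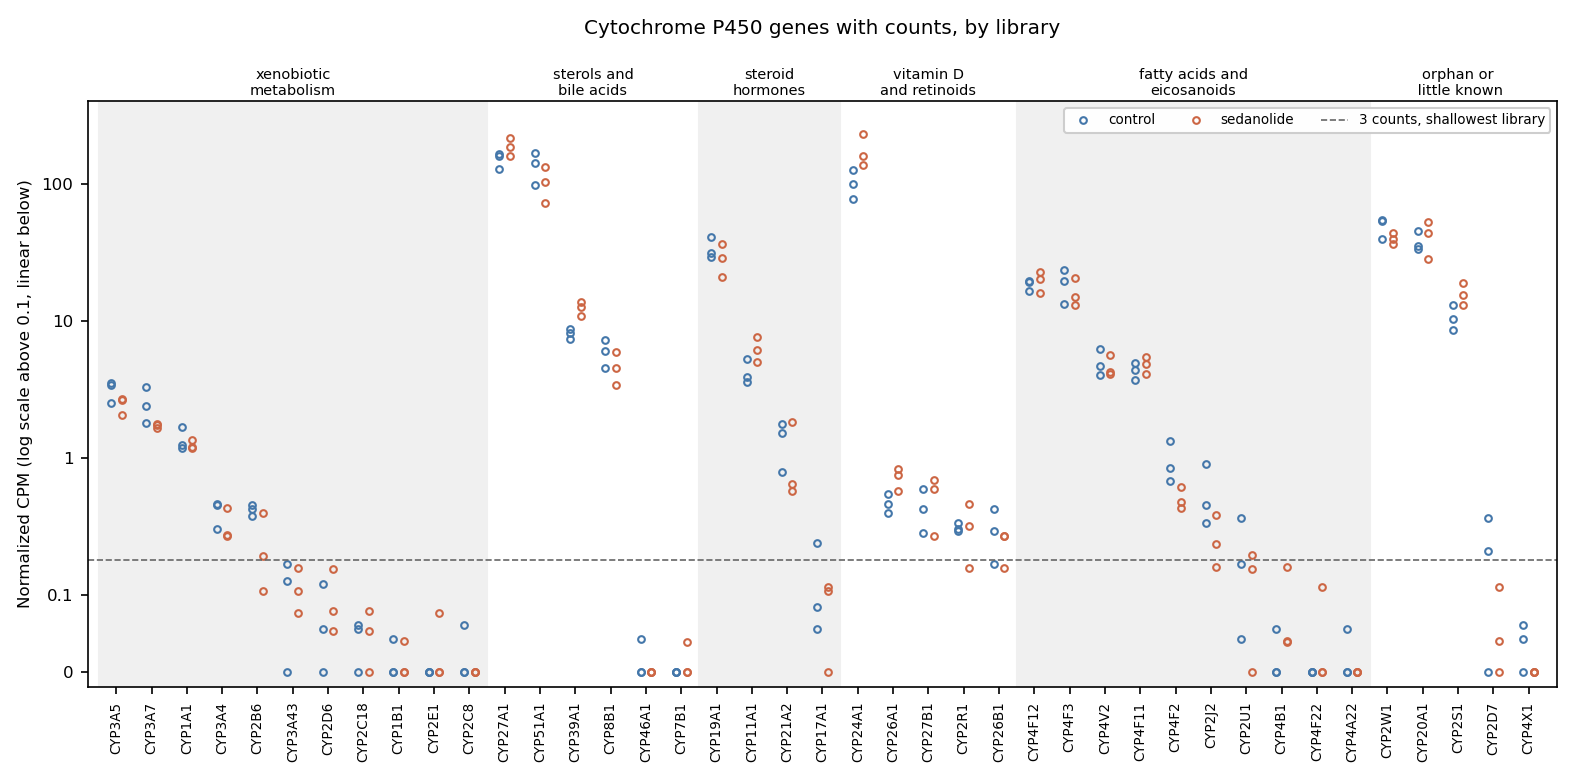
Normalized CPM of the 41 P450 genes with at least 1 count, in each of the 6 libraries (vertical axis, logarithmic above 0.1), ordered within roles by counts. Blue circles are control and red circles are sedanolide libraries, and the dashed line is 3 counts in the shallowest library (0.182 CPM). Of the 11 drug-metabolizing genes shown, 6 lie under the dashed line in every library. CYP27A1, CYP51A1 and CYP24A1 lie between 72.1 and 229.2 CPM over all 6 libraries.

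Enzymes that carry much of drug metabolism in adult liver were at or near 0. Of 17 members grouped by general knowledge under xenobiotic metabolism, 6 had 0 counts in every library, CYP1A2 and CYP2A6 among them. CYP2C8 had 1 count in all and CYP2E1, the enzyme that oxidizes ethanol, had 2. CYP3A4, which metabolizes a large share of drugs in adult liver, had 5, 11 and 8 counts in control 1 to 3 and 8, 7 and 7 in sedanolide 1 to 3. CYP2B6 had 7, 9 and 8 counts in control and 2, 5 and 10 in sedanolide libraries. CYP2D6 had 3 counts in all control and 7 in all sedanolide libraries. CYP7A1, the rate-limiting enzyme of bile acid synthesis, was at 0 in all 6 libraries, as were CYP11B1 and CYP11B2 of adrenal steroid synthesis. Members of other roles at 0 in every library included CYP4A11, CYP4F8, CYP26C1 and CYP27C1. At this depth, a gene listed at 0 may still hold up to 3 counts per library.

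Members with counts that the filter left out numbered 20, of which 10 had at least 10 counts in all. Besides CYP3A4, CYP2B6 and CYP2D6, these were CYP2J2 (31 control and 19 sedanolide counts), CYP2R1 (18 and 22), CYP26B1 (17 and 16), CYP2U1 (10 and 9), CYP2D7 (11 and 4), CYP3A43 (6 and 8) and CYP17A1 (7 and 5), where the sedanolide libraries held 70808212 counts in total and the control libraries 56915183. These members were not tested. The other 10 (CYP1B1, CYP2C8, CYP2C18, CYP2E1, CYP4A22, CYP4B1, CYP4F22, CYP4X1, CYP7B1 and CYP46A1) had 1 to 6 counts in all.

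TPM values, taken back from the deposited log2(TPM + 1) table, are per length and so can be compared between genes, and covered 11 members. CYP27A1, the mitochondrial sterol 27-hydroxylase, came first, with 128.4 ± 7.91 TPM in control and 147.0 ± 10.6 TPM in sedanolide libraries (SD, n = 3). CYP51A1 (lanosterol 14α-demethylase, 70.1 ± 22.7 TPM in control), CYP24A1 (vitamin D 24-hydroxylase, 58.6 ± 19.3 TPM), CYP19A1 (aromatase, 38.4 ± 7.29 TPM) and CYP2W1 (34.2 ± 3.81 TPM) followed. In that order, the control values of neighbors among these 4 overlapped, and those of CYP27A1 and CYP51A1 did not overlap. CYP4F12 (19.5 ± 0.689 TPM) and CYP20A1 (18.9 ± 2.05 TPM) lay below CYP2W1 without overlap and were not separated from one another. CYP4F3 (10.1 ± 3.57 TPM), CYP2S1 (7.53 ± 1.91 TPM) and CYP39A1 (6.49 ± 1.87 TPM) overlapped in sequence, and CYP11A1 was lowest with 3.45 ± 0.4995 TPM. In sedanolide libraries CYP24A1 was at 96.9 ± 31.1 TPM and CYP51A1 at 48.7 ± 17.0 TPM, so that CYP24A1 exceeded CYP51A1 in 3 of the 6 libraries, namely those of sedanolide.

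Exposure to sedanolide was then compared with control for the 21 members tested. No member was called at both thresholds of edgeR's quasi-likelihood test (FDR of 0.05 and fold change of 1.5), where 0.667% of the 14102 genes tested were called (50 higher and 44 lower). DESeq2 called 1 member, CYP39A1, against 2.31% of all genes, and limma-voom called 0. At an unadjusted p-value under 0.05, edgeR gave 5 of the 21 members (23.8%), against 11.9% of all genes. In 6 of the 21 (28.6%) the 3 sedanolide libraries lay entirely on one side of the 3 control libraries, which was so for 18.3% of all genes. The log2 fold changes were between -0.88 and 0.79, with 10 above and 11 below 0 and a median of -0.092, beside 0.0057 for all genes tested. Adjusted p-values of the members from edgeR were between 0.164 and 0.897. The smallest unadjusted p-value of a member was 0.00392, whereas the called genes had unadjusted p-values of up to 0.000331 and log2 fold changes of at least 0.64 in size.

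**Figure D2:**
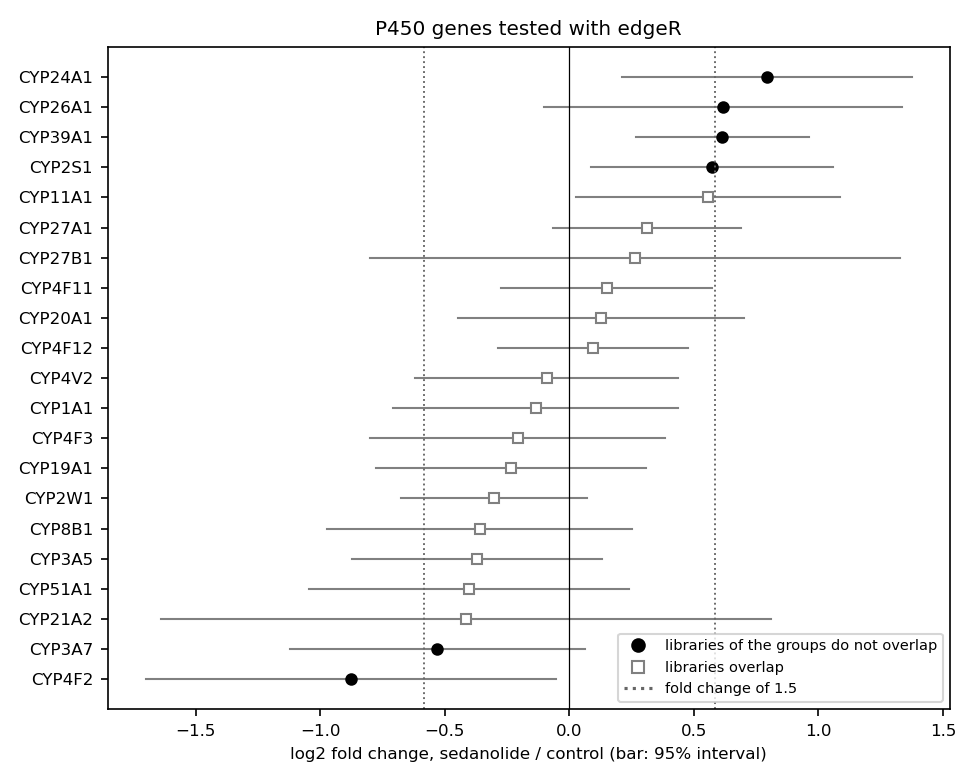
Log2 fold change (sedanolide against control, horizontal axis) of the 21 P450 genes tested with edgeR, with approximate 95% intervals. Filled circles are genes whose groups do not overlap, open squares those whose groups do, and dotted lines mark a fold change of 1.5. The intervals of 19 genes cross a dotted line, and those of 5 leave out 0.

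The approximate 95% interval of the log2 fold change reached past a 1.5-fold change in 19 of the 21 members. Only CYP4F11 (0.15, interval -0.28 to 0.57) and CYP4F12 (0.096, interval -0.29 to 0.48) had intervals within 1.5-fold in either direction. For the other members a change of that size was neither called nor outside the interval.

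Among the enzymes of vitamin D and retinoids, 3 of 7 members were tested, all 3 with log2 fold changes above 0. CYP24A1 (ENSG00000019186, chromosome 20 of GRCh38, 54153446 to 54173986, minus strand) inactivates the active form of vitamin D. Its level was 100.1, 126.4 and 77.8 CPM in control 1 to 3 and 137.6, 160.5 and 229.2 CPM in sedanolide 1 to 3. In CPM every sedanolide library lay above every control library, with sedanolide 3 the highest. In TPM the groups overlapped, with 59.5, 77.5 and 38.8 TPM in control and 72.6, 86.3 and 131.9 TPM in sedanolide libraries. On the log2(TPM + 1) scale the log2 fold change was 0.73 (adjusted p = 0.439 from limma). The fit of edgeR put the log2 fold change at 0.79 with a standard error of 0.247 (interval 0.21 to 1.37, adjusted p = 0.272), the largest positive value of the family. Within the first side of component 1 the difference of log2 CPM was 1.03 and within the second it was 0.93. When the edgeR fit also held a term for the side, CYP24A1 was the 1 member called (log2 fold change 0.98, standard error 0.117, adjusted p = 0.00257), where 2.69% of all genes were called. The sides were read from the same libraries. The vitamin D receptor VDR had 4.69 ± 1.48 CPM in control and 2.94 ± 0.571 CPM in sedanolide libraries (SD, n = 3), for which edgeR gave -0.67 on the log2 scale (adjusted p = 0.389). CYP27B1, which makes active vitamin D, was at 0.433 ± 0.155 and 0.520 ± 0.223 CPM (SD, n = 3), and its exons share 107 bases with METTL1 on the same strand, which had 2032 counts in all against 64 for CYP27B1.

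CYP26A1, which degrades retinoic acid, had 0.545, 0.466 and 0.396 CPM in control and 0.753, 0.579 and 0.833 CPM in sedanolide libraries. The groups did not overlap, with 7 to 21 counts per library, and edgeR put the log2 fold change at 0.62 with a standard error of 0.306 (adjusted p = 0.484). It was 0.63 within the first side of component 1 and 0.62 within the second. The retinoic acid receptor RARB was at 1.06 ± 0.311 CPM in control and 1.81 ± 0.181 CPM in sedanolide libraries (SD, n = 3), for which edgeR gave 0.75 on the log2 scale (adjusted p = 0.348).

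Among the enzymes of sterols and bile acids, 4 of 7 members were tested, with 2 log2 fold changes above and 2 below 0. CYP39A1 (ENSG00000146233, chromosome 6, 46549580 to 46652830, minus strand) hydroxylates 24-hydroxycholesterol in bile acid synthesis. It had 7.33, 8.68 and 8.20 CPM in control and 13.7, 12.7 and 10.8 CPM in sedanolide libraries. All sedanolide libraries were above all control libraries, and the log2 fold change was 0.61 (standard error 0.147, interval 0.27 to 0.96). Its adjusted p of 0.164 from edgeR was the lowest of the family, and it was 0.0295 from DESeq2. The differences within the sides of component 1 were 0.43 and 0.68. In TPM the groups overlapped, with 5.30, 8.65 and 5.52 TPM in control and 7.91, 7.83 and 7.11 TPM in sedanolide libraries, and the log2 fold change on the log2(TPM + 1) scale was 0.23 (adjusted p = 0.675 from limma). With a pseudocount of 0.1 in place of 1 it was 0.26 (adjusted p = 0.670 from limma).

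CYP27A1 (ENSG00000135929, chromosome 2, 218781749 to 218815293, plus strand), which opens the acidic pathway of bile acid synthesis, had 160.4, 127.2 and 164.0 CPM in control and 214.0, 186.5 and 159.5 CPM in sedanolide libraries. In CPM the groups overlapped through sedanolide 3, and edgeR put the log2 fold change at 0.31 with a standard error of 0.161 (adjusted p = 0.5004). Its mean was 149.0 CPM on the first side of component 1 and 188.2 CPM on the second. The differences within the sides were 0.16 and 0.28, and the fit with a term for the side gave 0.22. In TPM the groups did not overlap, with 119.4 to 134.5 TPM in control and 138.5 to 158.8 TPM in sedanolide libraries (adjusted p = 0.592 from limma). CYP8B1, the sterol 12α-hydroxylase, was at 5.94 ± 1.36 CPM in control and 4.62 ± 1.26 CPM in sedanolide libraries (SD, n = 3), with overlapping groups.

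CYP51A1 (ENSG00000001630, chromosome 7, 92084987 to 92134803, minus strand) acts in cholesterol synthesis and had 141.0, 168.7 and 98.0 CPM in control and 72.1, 103.7 and 132.4 CPM in sedanolide libraries. The libraries ordered by side of component 1 rather than by group, with a mean of 147.4 CPM on the first side and 91.3 CPM on the second. The fit of edgeR put its log2 fold change at -0.40 with a standard error of 0.273 (adjusted p = 0.609), and the differences within the sides were -0.22 and -0.18. The fit with a term for the side gave -0.19. Without sedanolide 1 the value was -0.21, without control 2 it was -0.22 and without sedanolide 3 it was -0.63. Its counts were not whole numbers in any of the 6 libraries, RSEM dividing reads that match several genes, and an overlapping gene on the same strand (ENSG00000289027, 2827 shared exon bases) was given 831.7 counts against 15409.4 for CYP51A1. CYP8B1 also differed between the sides (6.40 and 4.16 CPM) by more than between the groups. Such was the case for 12 of the 21 members and for 65.9% of all genes tested.

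**Figure D3:**
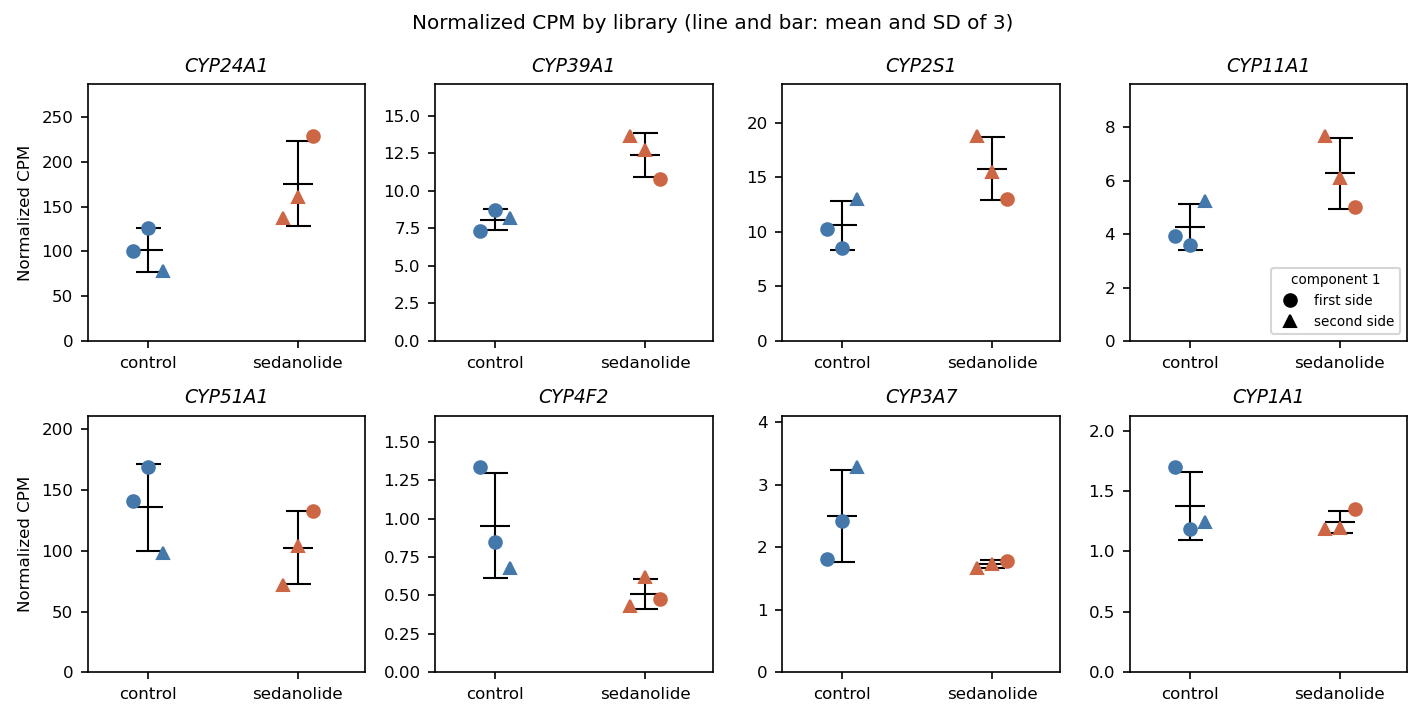
Normalized CPM (vertical axes, from 0) of 8 P450 genes in the 3 control (blue) and 3 sedanolide (red) libraries, with mean and SD. Circles are libraries on the first side of component 1 and triangles on the second. In CYP24A1 and CYP39A1 all sedanolide libraries lie above all control libraries, while in CYP51A1 the circles lie above the triangles within each group.

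Among the enzymes of steroid hormones, 3 of 6 members were tested and the groups overlapped in CPM in all 3. CYP11A1 (ENSG00000140459, chromosome 15, 74337759 to 74367646, minus strand) cleaves the side chain of cholesterol. It had 3.94, 3.60 and 5.26 CPM in control and 7.69, 6.10 and 5.04 CPM in sedanolide libraries, where sedanolide 3 lay below control 3. In TPM the groups did not overlap, with 3.16 to 4.03 TPM in control and 4.27 to 5.34 TPM in sedanolide libraries (adjusted p = 0.409 from limma). The fit of edgeR put its log2 fold change at 0.56 with a standard error of 0.225 (adjusted p = 0.391), and the differences within the sides were 0.41 and 0.38. A noncoding gene (647 shared exon bases) and the pseudogene PPIAP46 (270 bases) overlap it on the other strand, and its counts were not whole in any library. CYP19A1, or aromatase, the most abundant member of this role, had 31.4, 29.1 and 40.9 CPM in control and 36.6, 28.7 and 20.9 CPM in sedanolide libraries, for which edgeR gave -0.23 on the log2 scale (standard error 0.229, adjusted p = 0.721). The differences within the sides were -0.53 and -0.33, and the fit with a term for the side gave -0.43 (adjusted p = 0.0961 from edgeR). Without sedanolide 3 the value was -0.050, without control 3 it was -0.074 and without sedanolide 1 it was -0.45. CYP21A2, the steroid 21-hydroxylase, had 0.579 to 1.82 CPM over all 6 libraries. Its value is uncertain, since it has a near-identical pseudogene and its counts were not whole in any library.

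Of the drug-metabolizing members, 3 of 17 were tested, and all 3 log2 fold changes were below 0. CYP3A5 (ENSG00000106258, chromosome 7, 99648194 to 99679996, minus strand), the most abundant of them, had 2.54, 3.56 and 3.39 CPM in control and 2.63, 2.05 and 2.70 CPM in sedanolide libraries. Control 1 lay below 2 of the sedanolide libraries, and edgeR put the log2 fold change at -0.37 with a standard error of 0.213 (adjusted p = 0.547). CYP3A7, the fetal form of this subfamily and a neighbor of CYP3A5 on chromosome 7 (99705036 to 99735196), had 1.82, 2.41 and 3.28 CPM in control and 1.67, 1.74 and 1.78 CPM in sedanolide libraries. The groups were apart by a narrow margin, and edgeR put the log2 fold change at -0.53 with a standard error of 0.252 (adjusted p = 0.463), with -0.22 and -0.91 within the sides. CYP3A4, CYP3A5 and CYP3A7 are close paralogs, and reads that match more than one of them are divided by RSEM. Counts of CYP3A7 were not whole in 1 library.

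CYP1A1 (ENSG00000140465, chromosome 15, 74719542 to 74725536, minus strand), whose promoter is printed above, is strongly induced by ligands of AHR. It had 1.70, 1.19 and 1.24 CPM in control and 1.18, 1.20 and 1.35 CPM in sedanolide libraries, on 22 to 34 counts per library. The groups overlapped, and edgeR gave -0.14 on the log2 scale (standard error 0.244, adjusted p = 0.855), with an interval from -0.71 to 0.44 that corresponds to 0.612-fold to 1.35-fold. CYP1B1, another AHR target, had 1 count in all control and 1 in all sedanolide libraries, and CYP1A2 had 0. The summed level of the 17 drug-metabolizing members was 7.03, 8.17 and 9.10 CPM in control and 6.24, 5.75 and 6.86 CPM in sedanolide libraries, 0.776 times the control mean, of which CYP3A5, CYP3A7 and CYP1A1 formed the larger part.

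Among the enzymes of fatty acids and eicosanoids, 5 of 12 members were tested, with log2 fold changes from -0.88 to 0.15. CYP4F2 (ENSG00000186115, chromosome 19, 15878023 to 15898077, minus strand), an ω-hydroxylase of fatty acids and vitamin K, had the lowest value of the family. It had 22, 20 and 12 counts (1.33, 0.847 and 0.678 CPM) in control and 8, 16 and 12 counts (0.430, 0.618 and 0.476 CPM) in sedanolide libraries. The groups did not overlap in CPM, and edgeR put the log2 fold change at -0.88 with a standard error of 0.351 (adjusted p = 0.386), with -1.02 and -0.34 within the sides. CYP4F12 (15673018 to 15697174 of the same chromosome), the most abundant gene of this role, had 19.1, 16.6 and 19.6 CPM in control and 22.9, 20.1 and 16.1 CPM in sedanolide libraries. CYP4F11 (15912367 to 15934867), the holder of the ARE core shown above, had 4.91, 4.36 and 3.73 CPM in control and 5.43, 4.13 and 4.88 CPM in sedanolide libraries. CYP4F3 was at 18.8 ± 5.05 CPM in control and 16.2 ± 3.93 CPM in sedanolide libraries (SD, n = 3). CYP4V2, the other tested member found to hold the ARE core, was at 4.98 ± 1.16 and 4.69 ± 0.854 CPM (SD, n = 3). The groups overlapped in all 4 of CYP4F12, CYP4F11, CYP4F3 and CYP4V2. Counts of CYP4F2 and CYP4F3, which are paralogs, were not whole in 2 libraries each.

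Of the members whose substrates are little known, 3 of 7 were tested. CYP2S1 (ENSG00000167600, chromosome 19, 41193210 to 41207539, plus strand), known from epithelia outside the liver, had 10.3, 8.56 and 13.0 CPM in control and 18.8, 15.5 and 13.0 CPM in sedanolide libraries. Its lowest sedanolide library (13.04 CPM) and its highest control library (13.00 CPM) were almost equal. In TPM the groups overlapped, with 5.85 to 9.61 TPM in control and 7.97 to 11.7 TPM in sedanolide libraries. The fit of edgeR put the log2 fold change at 0.57 with a standard error of 0.206 (adjusted p = 0.343), and the differences within the sides were 0.47 and 0.39. CYP2W1, a form described in fetal gut and colorectal tumors, had 54.5, 39.7 and 53.7 CPM in control and 43.9, 36.3 and 39.6 CPM in sedanolide libraries, with overlapping groups and a log2 fold change of -0.30 (adjusted p = 0.503). In TPM the groups did not overlap, with 30.2 to 37.8 TPM in control and 22.6 to 28.4 TPM in sedanolide libraries (adjusted p = 0.346 from limma). CYP20A1, an orphan member, was at 38.02 ± 6.63 and 41.6 ± 12.4 CPM (SD, n = 3), and the direction of its difference was not stable over the settings tried. A noncoding gene on the other strand overlaps 158 bases of its exons.

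The family as a whole took 611.7, 616.6 and 564.2 CPM in control 1 to 3 and 655.3, 651.8 and 703.2 CPM in sedanolide 1 to 3. Every sedanolide library was above every control library, and the ratio of the means was 1.12. Scaled by library size alone, the sums were 614.9, 634.6 and 568.7 CPM in control and 640.6, 631.7 and 707.6 CPM in sedanolide libraries, and sedanolide 2 lay below control 2. Without CYP27A1, the highest member, the sums were 400.2 to 489.4 CPM in control and 441.3 to 543.8 CPM in sedanolide libraries, and the groups overlapped. The mean sum was 597.5 CPM in control and 670.1 CPM in sedanolide libraries, while the mean of CYP24A1 alone was 101.4 and 175.8 CPM. The mean of CYP24A1 was thus higher by about as much as the mean of the whole sum, and the higher sum does not describe the family at large. Among the 21 members tested, 10 log2 fold changes were above and 11 below 0. The sum without CYP24A1 was not computed. These sums count reads and not molecules, since long transcripts give more reads. In bulk RNA, fewer cells that express a gene and less of its RNA per cell cannot be told apart.

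The genes that serve P450 enzymes or control them were examined as lists, by counts of calls and by the median only, beside a median of 0.0057 for all genes. HNF4A is both a regulator and one of the hepatocyte markers. None of the 9 redox partners was called by edgeR, with 1 at an unadjusted p-value under 0.05 (11.9% of all genes), 6 log2 fold changes above 0 and a median of 0.10. DESeq2 called 1, as did edgeR with a term for the side of component 1, and limma-voom called 0. That gene was in each case CYB5A, cytochrome b5, with 98.9 ± 15.3 CPM in control and 158.4 ± 9.69 CPM in sedanolide libraries (SD, n = 3), for which edgeR gave 0.68 on the log2 scale (adjusted p = 0.130), and the groups did not overlap. POR, the oxidoreductase that feeds all microsomal members, was at 303.8 ± 45.9 and 394.4 ± 52.9 CPM (SD, n = 3), for which edgeR gave 0.38 on the log2 scale (adjusted p = 0.426). Its groups were apart by a narrow margin only, with 334.6 CPM in control 3 and 337.8 CPM in sedanolide 3. Groups did not overlap in 18.3% of all genes. CYB5R3 had the lowest value of the list (-0.31), and the ferredoxin FDX1 of the mitochondrial members had 0.10.

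None of the 8 genes of heme synthesis was called by edgeR, DESeq2 or limma-voom, with 3 at an unadjusted p-value under 0.05 (11.9% of all genes), 5 log2 fold changes above 0 and a median of 0.18. ALAS1, which starts heme synthesis in liver, was at 69.1 ± 3.48 CPM in control and 86.9 ± 7.17 CPM in sedanolide libraries (SD, n = 3), for which edgeR gave 0.33 on the log2 scale (adjusted p = 0.317). FECH, which inserts the iron, had 0.60 (adjusted p = 0.311) and was called with the side as a term, and ALAD, which acts after ALAS1, had -0.57 (adjusted p = 0.133). The groups did not overlap in these 3 and in CPOX, 4 of the 8 genes, where 18.3% of all genes did not. Of the 4 genes of heme breakdown 0 were called by any of these tools and 1, BLVRB, was at an unadjusted p-value under 0.05 (log2 fold change 0.59, adjusted p = 0.396). HMOX1 had the lowest value (-0.038).

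**Figure D4:**
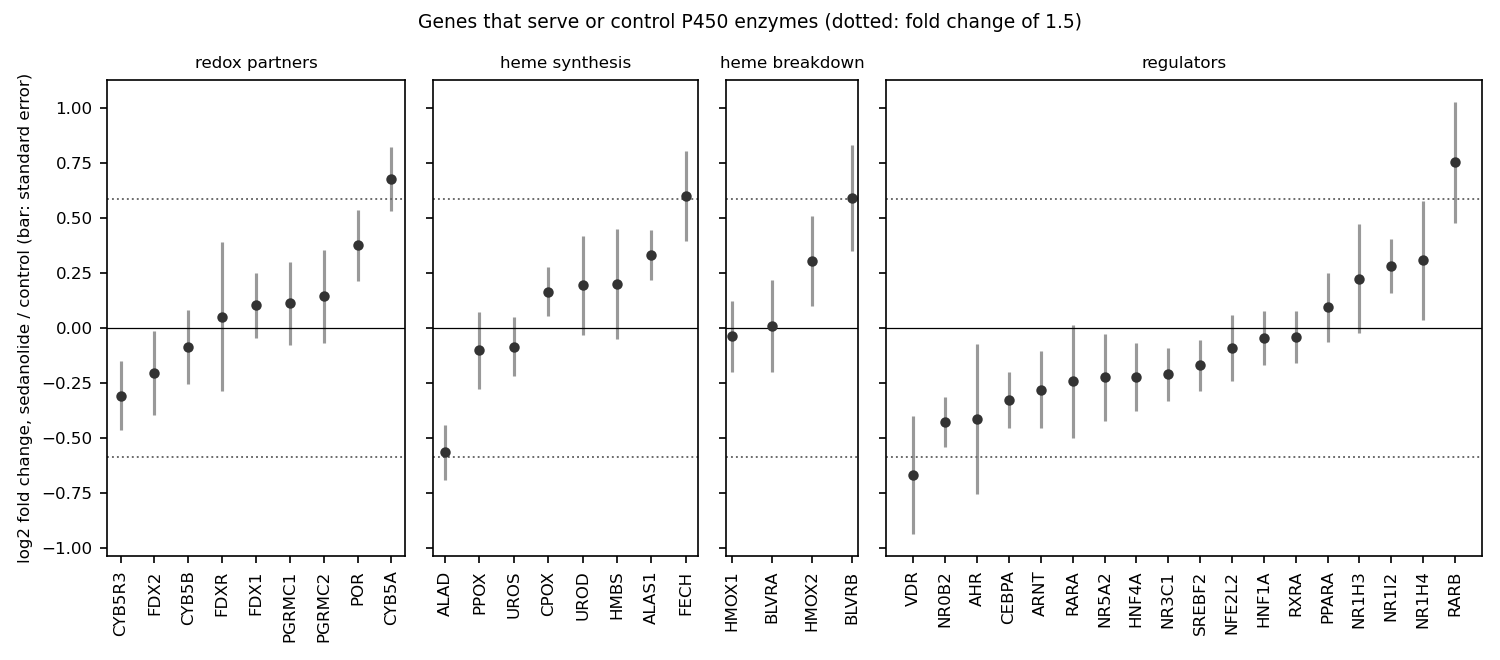
Log2 fold change (sedanolide against control, vertical axis, with standard error) of genes that pass electrons to P450 enzymes, make or degrade heme, or control P450 transcription. Dotted lines mark a fold change of 1.5. CYB5A, FECH, BLVRB and RARB lie above the upper line and VDR below the lower line, and none of the genes shown was called by edgeR with condition as the only term.

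Of 20 transcription factors known to control P450 genes, 18 were tested and 0 were called by edgeR, DESeq2 or limma-voom (1, VDR, with the side as a term), with 4 at an unadjusted p-value under 0.05 (11.9% of all genes), 5 log2 fold changes above and 13 below 0 and a median of -0.19. Besides VDR and RARB these were NR0B2, a corepressor in bile acid signaling (79.0 ± 6.84 CPM in control and 58.7 ± 1.98 CPM in sedanolide libraries, SD, n = 3, log2 fold change -0.43, adjusted p = 0.203), and CEBPA (log2 fold change -0.33, adjusted p = 0.379). AHR was at 11.03 ± 3.16 and 8.27 ± 3.61 CPM (SD, n = 3) with overlapping groups. The repressor AHRR, also an AHR target, was too low to be tested, at 0.526 ± 0.233 and 0.246 ± 0.233 CPM. NR1I2, the pregnane X receptor, was at 24.4 ± 1.23 and 29.7 ± 3.07 CPM (log2 fold change 0.28, adjusted p = 0.428), while NR1I3, the constitutive androstane receptor, was at 0.215 ± 0.131 and 0.193 ± 0.142 CPM and was not tested. NFE2L2, the gene of NRF2, had a log2 fold change of -0.090. For comparison with the pathway that the study examined, the ARE-driven reporter SLR3 was at 16.2, 14.6 and 18.03 CPM in control and 69.6, 68.8 and 59.4 CPM in sedanolide libraries, for which edgeR gave 2.02 on the log2 scale (adjusted p = 0.00324). The other reporter, ELuc, was at 18.7, 18.6 and 18.5 CPM in control and 13.0, 10.1 and 8.13 CPM in sedanolide libraries. Its groups did not overlap, as in 18.3% of all genes, and edgeR gave -0.84 on the log2 scale (adjusted p = 0.131). The paper reports no significant change of ELuc luminescence, a measure other than RNA.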

How the data were processed

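RNA of 6 samples of luciferases-expressing HepG2 cells was sequenced with a directional library kit as paired-end reads. After trimming (Trimmomatic) and alignment to GRCh38 (STAR), the authors deposited expected counts per gene from RSEM, without normalization, and a table of log2(TPM + 1) for part of the genes. Tool versions and the counting's use of strand are not given in the sources used here.

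Expected counts were rounded, filtered with filterByExpr, normalized by TMM and tested with edgeR 4.0.16 (robust quasi-likelihood, condition as the only term, Benjamini-Hochberg over all genes and both reporters), after a test on simulated data. The thresholds are those of the study's methods. The authors' tool, DESeq2, was run as an alternative (1.42.0), and limma 3.58.1 on the deposited log2 table. Standard errors were taken from the quasi-likelihood F statistic, and 95% intervals from them are approximate. Symbols and positions are from GENCODE 44, and 61369 genes were matched. Promoter sequences are from RefSeq. Members, roles and lists were chosen with earlier results of these data known. Values per library are given for members with an unadjusted p-value under 0.05 and for the most abundant of each role. In the lists, genes under that p-value and the highest and lowest log2 fold changes are named. CYP1A1, CYP51A1, CYP26A1, CYP3A7 and CYP4F11 (values per library), POR, FDX1, CPOX, AHR, AHRR, NR1I2, NR1I3 and NFE2L2 were added after their values were seen. The labels do not say whether replicate numbers pair the libraries, and the main fit did not pair them. One member is counted in the totals but not reported here by itself.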

Additional observations from a re-analysis of the deposited data

How the results depend on the processing

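Calls over all genes and over the members, and the values of single members, were recomputed with DESeq2, limma-voom, scaling by median of ratios or by library size alone, 2 other filters, the replicate number as a block, a term for the side of component 1, omission of each library, no fold change threshold, and, for members, the TPM table with 2 pseudocounts. A P450 member was called in 2 of these settings, 1 with DESeq2 (CYP39A1) and 1 with the side as a term (CYP24A1), both higher. Over the fits without 1 library, edgeR called no member, 2 to 7 members were at an unadjusted p-value under 0.05, and the adjusted p of CYP39A1 was between 0.0953 and 0.623 and that of CYP24A1 between 0.182 and 0.702. Of 316 values of single members under other settings, 301 kept their direction and their side of the threshold, 2 were newly called and 13 changed sign, all of the last without a call. With the side as a term the log2 fold change was -0.098 for CYP20A1, -0.0063 for CYP4F12, 0.0015 for CYP4F3 and 0.050 for CYP4V2. From the TPM table it was -0.076 and, with a pseudocount of 0.1, -0.081 for CYP20A1, and -0.011 and -0.011 for CYP4F12. Without 1 library it ranged from -0.084 to 0.34 for CYP20A1, from -0.028 to 0.22 for CYP4F12, from -0.26 to 0.11 for CYP4V2, from -0.24 to 0.025 for CYP1A1 and from -0.0020 to 0.59 for CYP27B1, with the sign changed without sedanolide 1 (CYP20A1 and CYP4F12), control 2 (CYP4V2), control 1 (CYP1A1) and sedanolide 2 (CYP27B1).

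Among all genes, the numbers called higher and lower were 129 and 197 with DESeq2, 78 and 79 without a filter, and 150 and 229 with the side as a term. With the replicate block they were 0 and 0 (unadjusted p-values under 0.05 in 770 genes, 2 of them members). Libraries of the same number did not deviate together (correlations of -0.13, -0.30 and -0.73). Since those of the same number always lay on opposite sides of component 1, these correlations cannot show whether the cultures were paired. Without 1 library the calls ranged from 0 to 65 higher and from 0 to 70 lower, with none without control 1 or without sedanolide 2 (unadjusted p-values under 0.05 in 1065 and 887 genes). The causes were not tested. The other lists were recomputed only with DESeq2, limma-voom and the side as a term, and the summed level only by library size and without its highest member. The ratio of the summed P450 level was 1.12, and 1.09 by library size and 1.08 without CYP27A1. All of these sums hold CYP24A1, whose own mean in normalized CPM differed by about as much as the sum. Members under about 1 CPM rest on few counts, which limits the precision of their fold changes.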

Other observations

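Human P450 enzymes whose symbols fall outside the CYP pattern were looked at as well. TBXAS1, the thromboxane synthase, was at 0.557 ± 0.105 CPM in control and 0.413 ± 0.127 CPM in sedanolide libraries (SD, n = 3), for which edgeR gave -0.44 on the log2 scale (adjusted p = 0.670), with overlapping groups. PTGIS, the prostacyclin synthase, had 0 counts in all 6 libraries.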
